A study of Mus musculus with 8 samples.

Results

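The 10 genes described here were grouped as markers of the tissues that border or line the brain, although some are also known from other cells: Zic1, Myoc, Gkn3, Slc6a13, Slc6a20a, Aldh1a2, Ogn, Dcn, Lum and Ttr. They were chosen by name, with results of these arrays in view, including the falls of Myoc and Gkn3 after cryolesion and the opposite-signed Zic1 estimates in the genotypes, out of 22911 genes named on the array. Every probe annotated to one of them was read, which gave 11 probes, and all 10 genes passed the filter on dim probes. RNA came from the right fronto-parietal cortex of 16 mice in 4 groups of 4: floxed mice with a cryolesion, floxed control mice, mice deficient in microglia-derived Il6 with a cryolesion, and control mice with that deficiency. A cryolesion is a focal injury made by freezing the cortical surface, and Il6 encodes the inflammatory cytokine interleukin 6. The Cre driver behind the deficiency, the strain, age and sex of the animals and the time after injury are not given in the sources used here.

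The meninges are the membranes around the brain, and their innermost layers hold fibroblasts that make collagens, small leucine-rich proteoglycans, retinoic acid and a set of solute transporters. Dissected cortex carries some of this membrane on its surface. The choroid plexus is the secretory epithelium inside the ventricles and produces transthyretin, encoded by Ttr, in large amounts. After a penetrating or freezing injury, fibroblasts are also known to take part in the scar. Fewer cells of a type and less RNA per cell cannot be told apart in such bulk samples.

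Each of the 8 Agilent arrays held 1 animal in Cy5 and 1 in Cy3, on the 4 sides of a loop with 2 arrays each. The control side set Il6-deficient against floxed controls, and the lesion side set Il6-deficient against floxed cryolesioned mice. The floxed-lesion side set floxed cryolesioned against Il6-deficient control mice, and the deficient-lesion side set Il6-deficient cryolesioned against floxed control mice. The probes were well above background in 59.2% to 65.9% of cases per channel, and 0 spots were saturated. Levels are log2 channel intensities per animal, and changes are log2 differences fitted with limma to the array ratios, with standard errors (SE). The number of arrays limits their precision. Gfap, the injury-responsive astrocyte gene, checked the lesion: it was 12.8 to 14.0 in floxed cryolesioned mice, against 9.72 to 10.4 in floxed controls, and 12.6 to 13.1 in Il6-deficient cryolesioned mice, against 9.45 to 10.2 in Il6-deficient controls. Xist, transcribed in females, cleared background in 0 of 4 mice of either cryolesioned group, against 3 of 4 floxed controls and 1 of 4 Il6-deficient controls. Sex by this measure moved with the cryolesion, and among controls it also differed between the genotypes. Changes with sex as a covariate are given beside Myoc and Gkn3, but in that fit the sex term rested on control-side array 2 alone, since all floxed controls on other arrays had Xist and all Il6-deficient animals on other arrays lacked it.

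The regions upstream of 4 members that were lower after cryolesion are shown because these genes moved in the same direction. RefSeq's promoter table, of build GRCm38.p6, held entries for 7 of the members, all of those named above other than Dcn, Lum and Ttr. The 250 bases before the start of Myoc are chr1:162638900-162639149 on the plus strand, those of Gkn3 are chr6:87388936-87389185 on the minus strand, those of Slc6a20a are chr9:123678833-123679082 on the minus strand, and those of Ogn are chr13:49607765-49608014 on the plus strand. They run 5′ to 3′ along the gene, and capitals mark matches, on either strand, to 4 motifs. These were the TATA box in the form TATAAA, the CCAAT box, the GC box in the form GGGCGG, and the STAT site in the form TTCNNNGAA.
Myoc: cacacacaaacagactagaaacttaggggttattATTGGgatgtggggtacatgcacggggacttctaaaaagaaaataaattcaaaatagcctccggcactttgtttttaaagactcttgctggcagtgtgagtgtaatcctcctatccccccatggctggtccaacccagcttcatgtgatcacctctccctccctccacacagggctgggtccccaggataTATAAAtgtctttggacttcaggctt
Gkn3: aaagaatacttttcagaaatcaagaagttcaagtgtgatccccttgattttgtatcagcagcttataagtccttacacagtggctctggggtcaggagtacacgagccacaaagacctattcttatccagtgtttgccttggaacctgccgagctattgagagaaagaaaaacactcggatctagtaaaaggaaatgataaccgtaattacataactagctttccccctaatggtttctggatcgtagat
Slc6a20a: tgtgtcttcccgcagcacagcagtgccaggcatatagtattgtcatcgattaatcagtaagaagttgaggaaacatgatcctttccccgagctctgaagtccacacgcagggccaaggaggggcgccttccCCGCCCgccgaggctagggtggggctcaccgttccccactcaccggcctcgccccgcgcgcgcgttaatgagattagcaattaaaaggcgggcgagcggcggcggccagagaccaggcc
Ogn: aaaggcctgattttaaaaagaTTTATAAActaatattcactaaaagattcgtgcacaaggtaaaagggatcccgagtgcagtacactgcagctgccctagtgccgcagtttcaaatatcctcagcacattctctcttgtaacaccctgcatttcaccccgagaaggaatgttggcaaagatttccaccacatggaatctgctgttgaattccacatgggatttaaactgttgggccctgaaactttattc
In Myoc, TATAAA began 26 bases before the start, and CCAAT lay on the opposite strand, beginning 216 bases before it. Ogn held TATAAA on both strands, in matches that overlap and begin 227 and 229 bases before the start. Slc6a20a held 1 GGGCGG match, on the opposite strand, and Gkn3 held none of the 4 motifs. No motif was present in all 4 windows. Among 32851 windows of the same length in the table, 12.4% held TATAAA, 33.8% CCAAT, 32.7% GGGCGG and 7.02% TTCNNNGAA, which none of the 4 windows held. The share of G and C was 46.8% for Myoc, 40.8% for Gkn3, 61.2% for Slc6a20a and 42.0% for Ogn, beside a median of 52.4% over all windows.

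Myoc encodes myocilin, a secreted olfactomedin-domain protein that in mouse brain marks the meninges and the astrocytes of the outermost glial layer. Its level was 6.34, 6.27, 6.43 and 6.18 in floxed cryolesioned mice, against 8.06, 7.69, 8.28 and 7.45 in floxed controls. It was 6.93, 6.19, 6.93 and 6.09 in Il6-deficient cryolesioned mice, against 8.08, 8.21, 7.98 and 7.47 in Il6-deficient controls. Every cryolesioned animal lay below every control animal, and 1 animal of each cryolesioned group was not well above background. The fitted cryolesion change was -1.38 ± 0.19 in floxed and -1.39 ± 0.19 in Il6-deficient mice, 2.60-fold and 2.63-fold lower. On the arrays that held a cryolesioned and a control animal, the log2 ratio was -1.64 and -1.19 on the floxed-lesion side and -1.35 and -1.36 on the deficient-lesion side. These changes belong to the contrasts by which the members were chosen and are given as a description. With sex as a covariate they were -1.23 in floxed and -1.24 in Il6-deficient mice. With the scanner's processed signals, which carry no added offset, they were -2.88 and -3.04, so the size for this dim probe moved with the background correction, and the floxed value was then not called.

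Gkn3 encodes gastrokine 3, a secreted protein of the gastrokine family whose transcript is known in mouse brain from arterial endothelium. Its level was 7.41, 7.60, 7.90 and 7.61 in floxed cryolesioned mice, against 8.67, 9.61, 9.56 and 9.28 in floxed controls. The ranges did not overlap. In Il6-deficient mice it was 7.87, 8.47, 9.14 and 7.95 with a cryolesion, against 8.95, 9.53, 9.46 and 9.34 in controls. Animal 3 of the cryolesioned group lay inside the control range here. The fitted change was -1.54 ± 0.23 in floxed and -1.23 ± 0.23 in Il6-deficient mice, 2.91-fold and 2.35-fold lower. The array ratios were -2.05 and -1.74 on the floxed-lesion side, and -0.42 and -1.33 on the deficient-lesion side. With sex as a covariate the changes were -1.80 in floxed and -1.50 in Il6-deficient mice. The difference of the cryolesion changes between genotypes was 0.31 ± 0.33, less than its own error, and it was -0.22 without array 2 of the control side. Of 10 other markers of arterial endothelium, such as Bmx and Sema3g, 0 passed the threshold for cryolesion in floxed or in Il6-deficient mice in limma (median changes -0.24 and -0.09). In the mean of both genotypes Bmx (-0.29 ± 0.07, adjusted p = 0.0479) and Alpl (-0.64 ± 0.15, adjusted p = 0.0388) were lower by limma. Over all features 5.87% were called lower in that mean. The mean level of the arterial list was 7.93 to 8.16 in floxed cryolesioned mice, against 8.07 to 8.37 in floxed controls. It was 7.97 to 8.19 in Il6-deficient cryolesioned mice, against 8.18 to 8.32 in Il6-deficient controls. Once group means were removed, Gkn3 correlated with these 10 markers at a median of -0.06. The part of the list in the Gkn3 change was not tested.

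**Figure D1:**
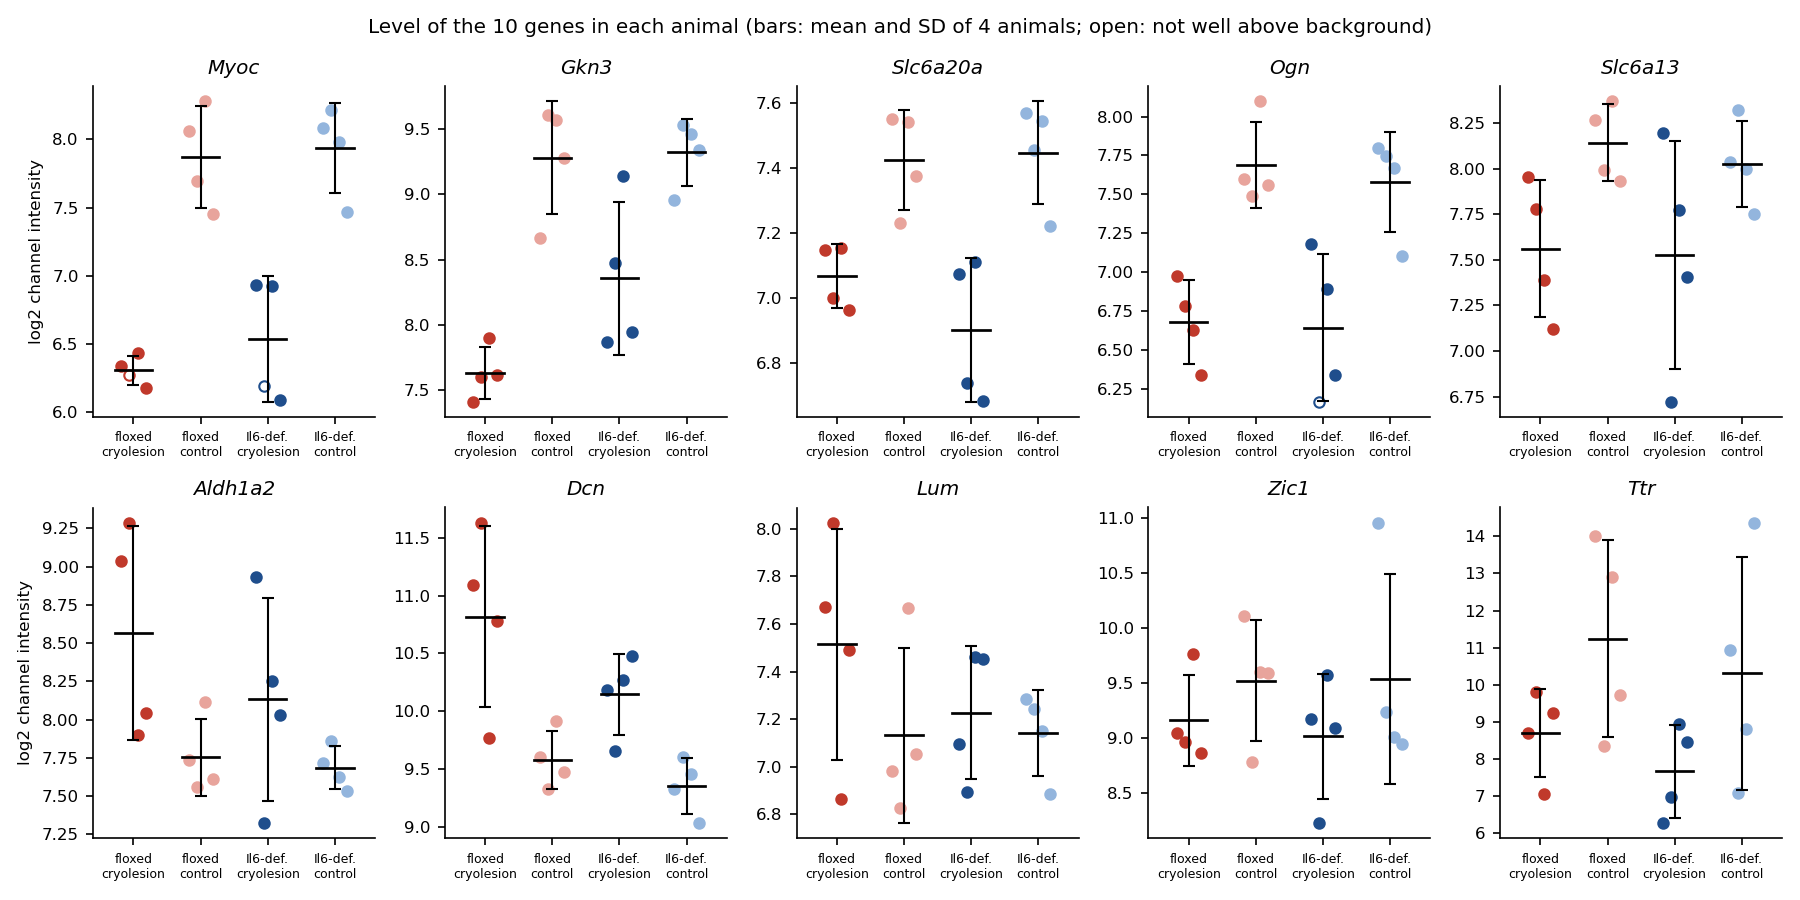
Log2 channel intensity (vertical axis) of each of the 10 genes in every animal, by group along the horizontal axis, with the mean and SD of 4 animals as bars and open points for animals not well above background. Myoc and Slc6a20a are lower in every cryolesioned animal than in every control of the same genotype, whereas Ttr spreads over 7.10 to 14.4 within Il6-deficient controls.

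Slc6a20a and Ogn were also called lower after cryolesion in the mean of both genotypes. Slc6a20a encodes a proline transporter of the SLC6 family, and its level was 7.15, 7.00, 7.15 and 6.96 in floxed cryolesioned mice, against 7.55, 7.23, 7.54 and 7.37 in floxed controls. It was 7.07, 6.74, 7.11 and 6.68 in Il6-deficient cryolesioned mice, against 7.57, 7.45, 7.54 and 7.22 in their controls. The ranges were apart in both genotypes but the change was small, -0.30 ± 0.11 in floxed and -0.57 ± 0.11 in Il6-deficient mice. Ogn encodes osteoglycin, a small leucine-rich proteoglycan of the extracellular matrix. Its level was 6.97, 6.78, 6.63 and 6.34 in floxed cryolesioned mice, against 7.60, 7.49, 8.10 and 7.56 in floxed controls. In Il6-deficient mice it was 7.18, 6.17, 6.89 and 6.34 with a cryolesion, against 7.80, 7.75, 7.67 and 7.10 in controls. The ranges were apart in floxed mice and met in Il6-deficient mice, where cryolesioned animal 1 lay above control animal 4. The fitted Ogn changes were -0.85 ± 0.27 in floxed and -0.88 ± 0.27 in Il6-deficient mice. With processed signals they were -1.57 and -1.94. Slc6a13, which encodes a GABA and taurine transporter of the same SLC6 family and of leptomeningeal cells, was 7.12 to 7.95 in floxed cryolesioned mice, against 7.93 to 8.37 in floxed controls. It was 6.72 to 8.19 in Il6-deficient cryolesioned mice, against 7.75 to 8.32 in Il6-deficient controls, and its fitted changes of -0.36 ± 0.30 and -0.21 ± 0.30 were within about their errors.

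Dcn, Aldh1a2 and Lum had higher means after cryolesion. Dcn encodes decorin, a proteoglycan that binds collagen fibrils. Its level was 11.1, 11.6, 9.77 and 10.8 in floxed cryolesioned mice, against 9.60, 9.33, 9.91 and 9.47 in floxed controls, and it was 10.2, 9.66, 10.3 and 10.5 in Il6-deficient cryolesioned mice, against 9.33, 9.61, 9.46 and 9.03 in Il6-deficient controls. Only floxed cryolesioned animal 3 lay inside its control range. The fitted change was 1.58 ± 0.43 in floxed and 1.22 ± 0.43 in Il6-deficient mice. Aldh1a2 encodes the enzyme that makes retinoic acid in the meninges. It was 9.04, 9.29, 7.90 and 8.04 in floxed cryolesioned mice, against 7.74, 7.56, 8.11 and 7.61 in floxed controls. It was 8.93, 7.32, 8.25 and 8.03 in Il6-deficient cryolesioned mice, against 7.72, 7.86, 7.62 and 7.53 in Il6-deficient controls. Its changes of 0.92 ± 0.45 and 0.94 ± 0.45 in floxed and Il6-deficient mice rested on animals that differed widely within each cryolesioned group. Lum, which encodes the collagen-binding proteoglycan lumican, overlapped in both genotypes, at 6.86 to 8.03 in floxed cryolesioned mice, against 6.83 to 7.67 in floxed controls, and at 6.90 to 7.46 in Il6-deficient cryolesioned mice, against 6.88 to 7.29 in Il6-deficient controls. Its changes were 0.74 ± 0.29 in floxed and 0.19 ± 0.29 in Il6-deficient mice.

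**Figure D2:**
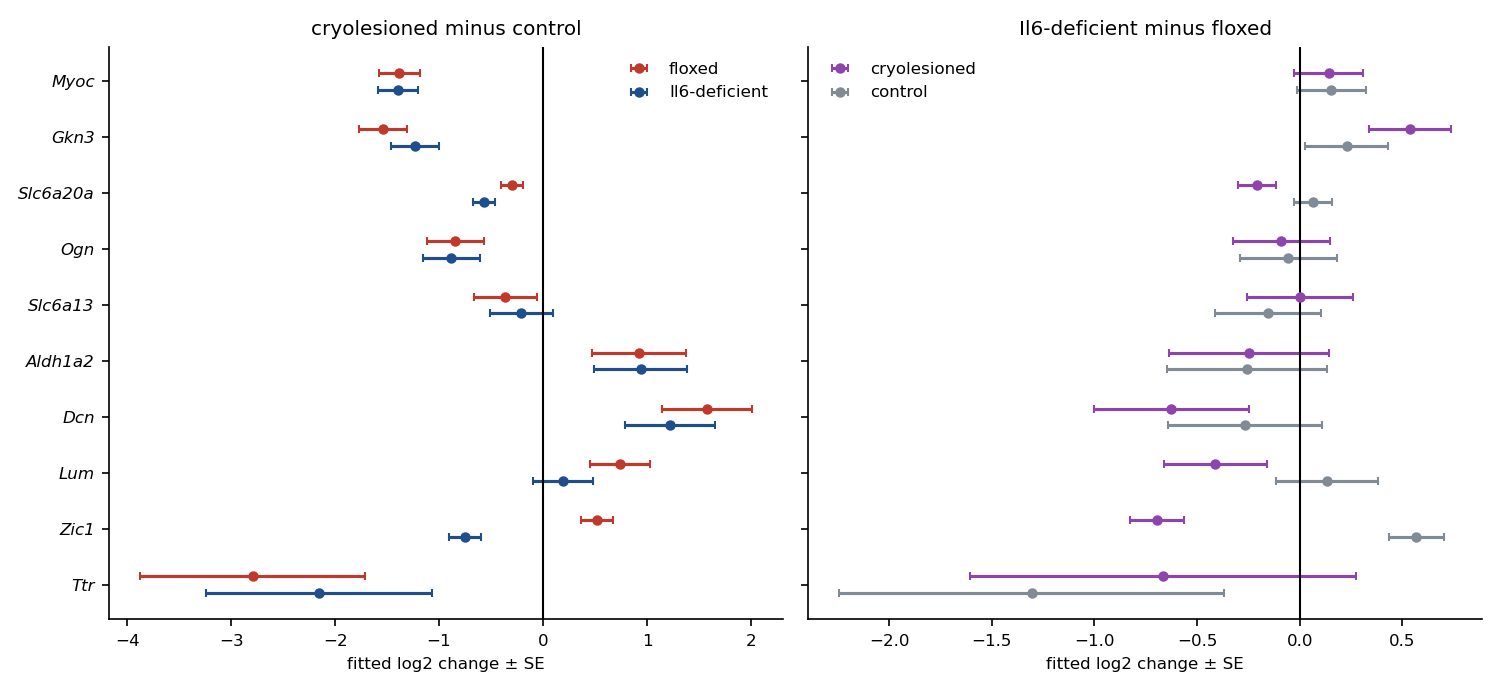
Fitted log2 change with its SE (horizontal axis) for each gene: cryolesioned minus control in each genotype on the left, and Il6-deficient minus floxed in each state on the right. Myoc and Gkn3 lie between -1.23 and -1.54 for cryolesion, and the Ttr bars are the widest, with an SE of 1.08.

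Read over the 10 members with a threshold of 0.05 on the Benjamini-Hochberg adjusted p of limma over 29362 features, 2 were called lower for cryolesion in floxed mice, Myoc and Gkn3, beside 1.19% of all features called lower (3.05% in either direction). In Il6-deficient mice 3 were called lower, Myoc, Gkn3 and Slc6a20a, beside 1.07% of all features (2.73% in either direction). For the mean of both genotypes, Myoc, Gkn3, Slc6a20a (-0.43 ± 0.08) and Ogn (-0.86 ± 0.19) were called lower, beside 5.87%, and Dcn (1.40 ± 0.31) higher, beside 6.02%. Nothing is read from these counts, since the members were named with them in view. Levels of 4 members in floxed mice, Myoc, Gkn3, Slc6a20a and Ogn, were lower without overlap, as were those of 7.49% of all features. In Il6-deficient mice this held for Myoc and Slc6a20a, beside 8.85% of all features, and Dcn was higher without overlap there, beside 8.41%. The median cryolesion change of the members was -0.33 in floxed and -0.66 in Il6-deficient mice, beside medians of -0.01 and -0.01 over all features. Myoc and Gkn3 were called for the mean of both genotypes without any 1 of the 8 arrays, but with the replicate block the Gkn3 call was lost, at -1.26. Leaving out a control-side or lesion-side array cannot move a mean change of both genotypes, only its error. Within each genotype the Myoc calls were lost without control-side array 1, floxed-lesion array 1, lesion-side array 2 or deficient-lesion array 2, at changes of -1.30 to -1.47. Those of Gkn3 were lost without the same arrays or floxed-lesion array 2, and in Il6-deficient mice also without lesion-side array 1, at changes of -1.06 to -1.68. The Slc6a20a call in Il6-deficient mice was lost without any 1 of the 8, at -0.51 to -0.67. For the mean of both genotypes, the Slc6a20a call was lost without either floxed-lesion array or deficient-lesion array 2. That of Ogn was lost without control-side array 1, floxed-lesion array 1, lesion-side array 2 or either deficient-lesion array, and that of Dcn without control-side array 1, either floxed-lesion array, lesion-side array 2 or deficient-lesion array 2, with its change at 0.98 without floxed-lesion array 2. With sex as a covariate the Slc6a20a and Ogn calls were lost.

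Ttr had the lowest fitted cryolesion change of all 29362 features in floxed mice, at -2.79 ± 1.08, and the second-lowest in Il6-deficient mice, at -2.15 ± 1.08, and it was called in neither. Its level was 8.69, 9.81, 7.06 and 9.25 in floxed cryolesioned mice, against 14.0, 8.37, 12.9 and 9.73 in floxed controls. It was 6.27, 6.99, 8.96 and 8.47 in Il6-deficient cryolesioned mice, against 10.9, 7.10, 8.82 and 14.4 in Il6-deficient controls. The groups overlapped in both genotypes, and 4 control animals stood above every cryolesioned animal while the other 4 did not. On the arrays with a cryolesioned and a control animal, its ratios were -0.13 and -4.56 on the floxed-lesion side and -3.94 and -1.26 on the deficient-lesion side. Without control-side array 1 the Ttr change was -1.49 in floxed mice and -3.46 in Il6-deficient mice, and its mean over both genotypes, -2.47, was then called. With the replicate block the change in Il6-deficient mice was -0.44. Without floxed-lesion array 2 the values were -1.68 in floxed mice and -1.04 in Il6-deficient mice. A second, dimmer Ttr probe cleared background in 2 of 4 floxed cryolesioned mice, against 3 of 4 floxed controls, and in 0 of 4 Il6-deficient cryolesioned mice, against 3 of 4 Il6-deficient controls. The level of that Ttr probe was 5.88, 6.04, 6.31 and 6.01 in Il6-deficient cryolesioned mice, none of them well above background, against 6.74, 5.91, 6.35 and 9.60 in Il6-deficient controls. The groups overlapped, and control animal 4 alone stood far above the rest. The fitted change of the probe was -2.11 ± 0.84 in floxed and -0.87 ± 0.84 in Il6-deficient mice, the second of these about as large as its error.

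Ttr was read beside 16 other markers of choroid plexus epithelium, among them the Klotho gene Kl, the folate receptor gene Folr1, the transcription factor Otx2 and the Wnt and BMP modulator Sostdc1. Their mean level was 6.97 to 7.22 in floxed cryolesioned mice, against 6.84 to 8.11 in floxed controls, and 6.69 to 7.08 in Il6-deficient cryolesioned mice, against 6.82 to 8.19 in Il6-deficient controls. The 3 animals with the highest list means were floxed controls 1 and 3 and Il6-deficient control 4, and they also had the highest Ttr. Across the 16 animals, after the group means were removed, the Pearson correlation of Ttr with these markers had a median of 0.84 and ran between 0.66 for Enpp2 and 0.94 for Sostdc1. These correlations are descriptions over animals that share arrays. By limma 0 of the 16 markers passed the threshold for cryolesion in either genotype, with median changes of -0.44 in floxed and -0.32 in Il6-deficient mice. Enpp2 was lower in the mean of both genotypes (-1.32 ± 0.19, adjusted p = 0.00862 by limma), where 5.87% of all features were called lower. The part of the list's spread in the Ttr change was not tested.

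**Figure D3:**
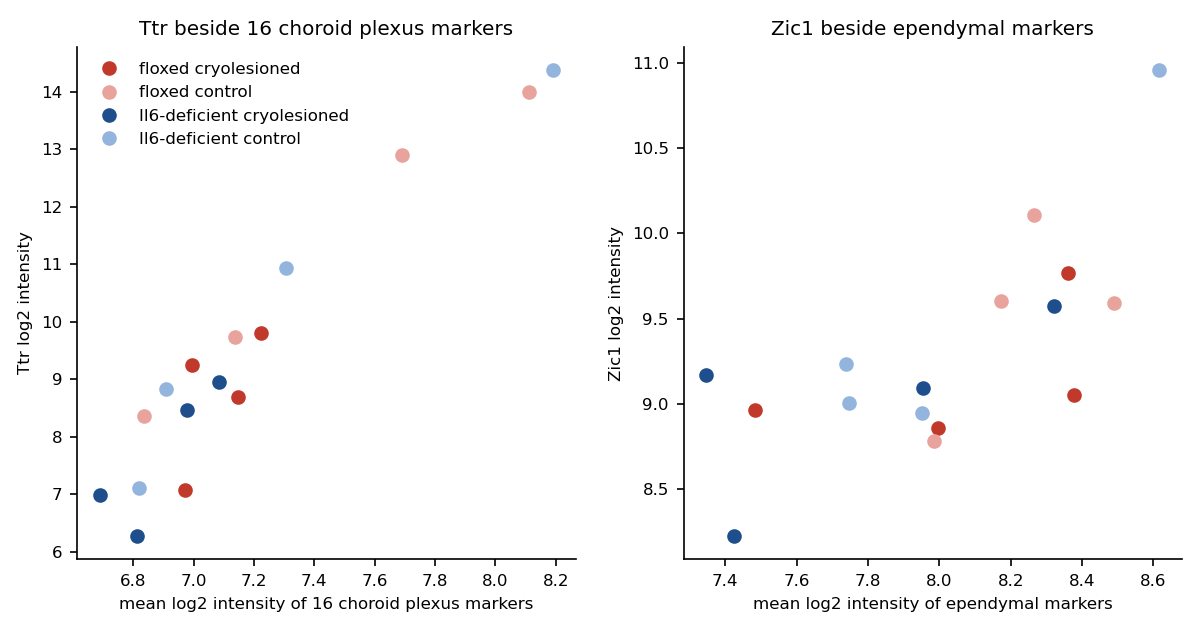
Level of Ttr (left) and Zic1 (right) on the vertical axes against the mean log2 intensity of a marker list on the horizontal axes, with 1 point per animal coloured by group. Ttr follows the 16 choroid plexus markers over 6.27 to 14.4, and the highest Zic1 value, 10.96 in an Il6-deficient control, also has the highest mean of the ependymal markers.

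Zic1 encodes a zinc-finger transcription factor of meningeal precursors and of midline brain regions such as the septum. Its level was 9.05, 8.97, 9.77 and 8.86 in floxed cryolesioned mice, against 10.1, 8.78, 9.60 and 9.59 in floxed controls. It was 9.17, 8.23, 9.57 and 9.09 in Il6-deficient cryolesioned mice, against 10.96, 9.23, 9.01 and 8.95 in Il6-deficient controls. All group ranges overlapped. The fit gave a cryolesion change of 0.52 ± 0.15 in floxed and -0.75 ± 0.15 in Il6-deficient mice, a difference of -1.26 ± 0.22. This trend was one reason for choosing Zic1 and is given as a description. The differences of the group means of the levels were -0.36 in floxed and -0.52 in Il6-deficient mice, so the sign in floxed mice was not the same on both scales. A fit to the separate channels gave -0.17 in floxed mice, -0.57 in Il6-deficient mice and a difference of -0.39. The ratio fit rested on within-array ratios of Il6-deficient over floxed mice, which were -0.59 and -0.63 on the lesion side, and 0.85 and 0.45 on the control side. The animals with the 2 highest levels, Il6-deficient control 1 and floxed control 1, shared control-side array 1. Without that array the difference was -0.98. With 1 other control-side or lesion-side array left out, it was further below 0 than in the full fit, down to -1.38. Leaving out a floxed-lesion or deficient-lesion array cannot move it, since in this loop the difference is fitted from the lesion and control sides.

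Zic4, another member of the Zic family and the gene next to Zic1 on chromosome 9 in the RefSeq table, followed Zic1 across the 16 animals after group means were removed, at r = 0.89. Zic2 did so at 0.28, and Zic5 did not pass the filter. Of 7 tested ependymal markers, genes of the ciliated cells that line the ventricles, 6 correlated with Zic1 within groups at over 0.5, with a median of 0.72. Their fitted differences of the cryolesion change between genotypes ran between -1.70 and -0.31, with a median of -0.69 beside 0.01 over all features, and 0 passed the threshold for any of the contrasts in limma. Their mean level was 7.48 to 8.38 in floxed cryolesioned mice, against 7.99 to 8.49 in floxed controls, and 7.35 to 8.32 in Il6-deficient cryolesioned mice, against 7.74 to 8.62 in Il6-deficient controls. Their median fitted cryolesion change was 0.56 in floxed and -0.51 in Il6-deficient mice. Over all 9 ependymal markers with a probe, the group mean of the levels was 7.61 in floxed cryolesioned mice, against 7.74 in floxed controls. In Il6-deficient mice it was 7.38 with a cryolesion, against 7.58 in controls. As for Zic1, the sign in floxed mice was not the same on both scales. The part of the ependymal markers in the Zic1 estimates was not tested.

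**Figure D4:**
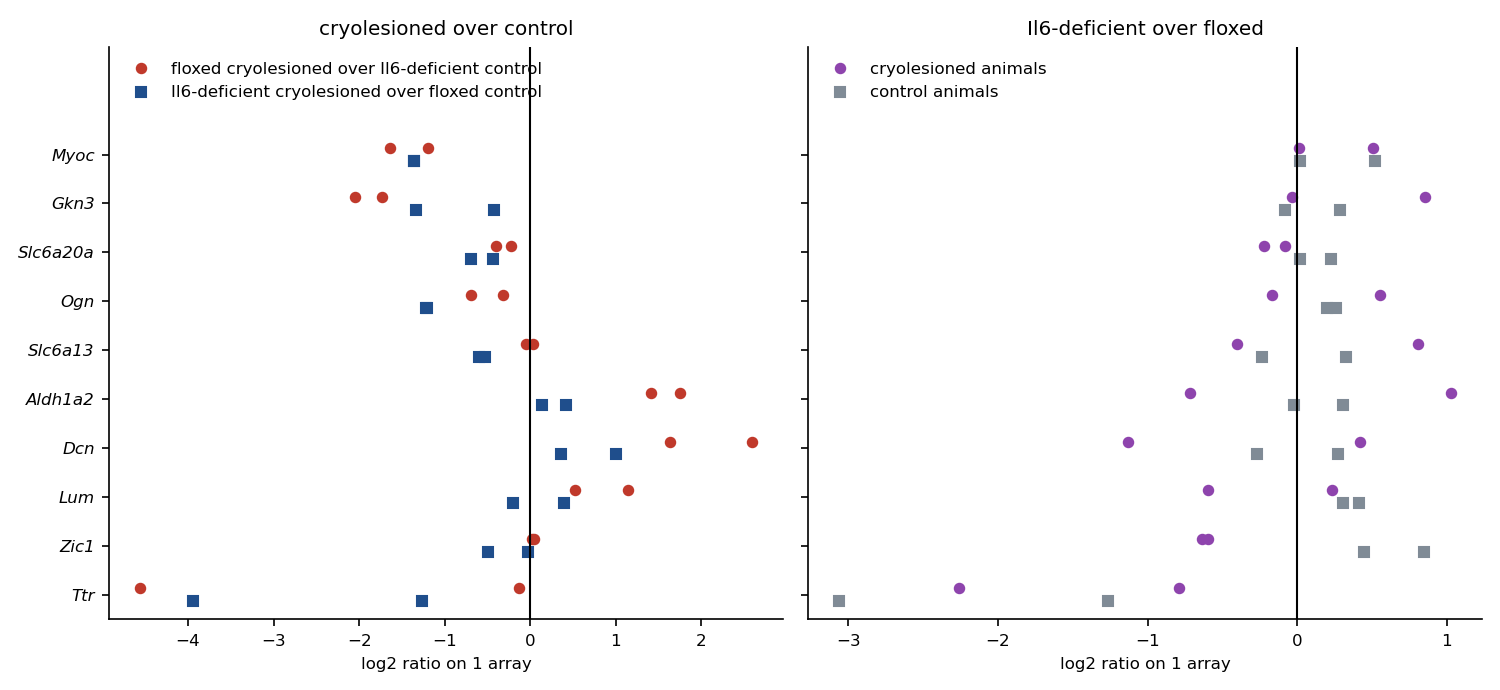
Log2 ratio on single arrays (horizontal axis) for each gene, with cryolesioned over control animals of the other genotype on the left and Il6-deficient over floxed animals of the same state on the right. The Myoc ratios lie between -1.64 and -1.19 on the left, with the points of the deficient-lesion side on top of each other, and Zic1 lies on opposite sides of 0 in cryolesioned and control animals on the right.

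Il6 deficiency moved none of the members past the threshold. By limma 0 members and 0% of all features were called between genotypes in cryolesioned mice, with 2529 features at an unadjusted p under 0.05, and 0 members and 0% were called in control mice, with 1299. The fit to separate channels called 1 feature in each state, and 0 of the members. For the mean of both states 0 members were called, beside 0.00341% of all features, and for the difference of the cryolesion changes 0 members and 0% were called, with 972 features at an unadjusted p under 0.05 and 0 by the separate-channel fit. Genotype differences were the readout least tied to the choice of members, although for Zic1 those of the 2 states differ by the quantity it was chosen for. Sex by Xist also differed between the control groups. It cannot be fully told apart from genotype in control mice, or in the difference of the cryolesion changes. Zic1 was -0.70 ± 0.13 in cryolesioned mice (adjusted p = 0.563 by limma) and 0.57 ± 0.13 in control mice (adjusted p = 0.983). The group means of its levels differed less, by -0.14 in cryolesioned and 0.01 in control mice. The separate-channel fit gave -0.26 and 0.13. Gkn3 was 0.54 ± 0.20 in cryolesioned mice (adjusted p = 0.574 by limma, 95% interval 0.06 to 1.01 before adjustment) and 0.23 ± 0.20 in controls. Dcn was -0.63 ± 0.38 and Lum -0.41 ± 0.25 in cryolesioned mice, with limma adjusted p of 0.647 and 0.652. Myoc was 0.14 ± 0.17 in cryolesioned and 0.15 ± 0.17 in control mice, with an interval of -0.25 to 0.54 in cryolesioned mice. A missed threshold does not show that the genotypes were alike.

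By the order of their group means, Myoc, Gkn3, Slc6a20a, Ogn, Slc6a13, Zic1 and Ttr had both control means above both cryolesioned means, and Aldh1a2, Dcn and Lum had both cryolesioned means above both control means. For Zic1 this order is not that of the fit, whose floxed change was 0.52 ± 0.15. The control means of Myoc differed by 0.07, of Gkn3 by 0.04 and of Slc6a20a by 0.02, less than the mean SD within groups of 0.32, 0.37 and 0.16. The cryolesioned means of Gkn3 differed by 0.72, more than that SD, with overlapping ranges. All neighbours in the order of Slc6a13 other than the step between control and cryolesioned means (0.46), and all in that of Lum, lay within the mean SD of 0.36 and 0.33.

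Within groups, the members fell into sets that the cryolesion direction alone does not give. Once group means were removed, the levels of the 16 animals correlated at 0.88 between Myoc and Slc6a20a, 0.86 between Myoc and Ogn, 0.86 between Slc6a20a and Ogn, and 0.89 between Slc6a13 and Ogn. For Myoc, only 0.00681% of the other tested features correlated as well or better than Slc6a20a did. Aldh1a2, which moved the other way after cryolesion, correlated at 0.90 with Slc6a13 and 0.78 with Ogn. Dcn and Lum, which are neighbours on chromosome 10 in the RefSeq table, correlated at 0.92, and 0.0102% of the other features followed Dcn as well or better. Gkn3 had no within-group correlation above 0.12 with any other member, and Ttr none above 0.27. The animals share arrays in pairs, and these values are descriptions.

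**Figure D5:**
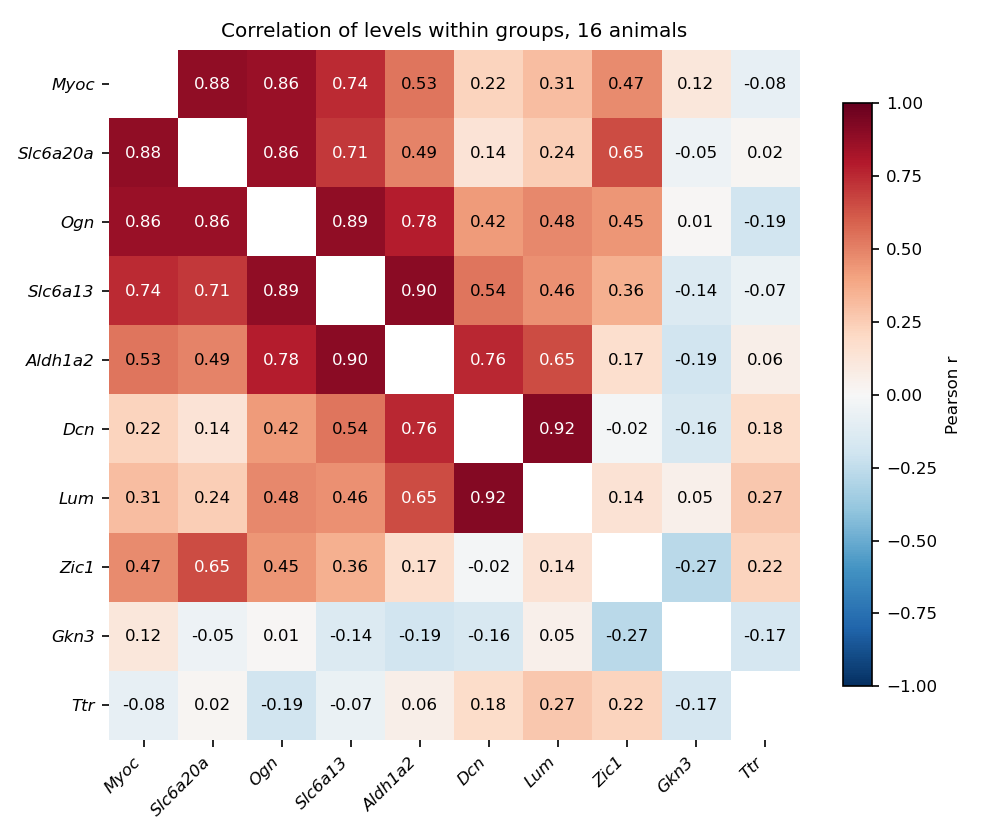
Pearson correlation of levels between the 10 genes over 16 animals after removal of group means, with the value printed in each cell and colour running between -1 and 1. Myoc, Slc6a20a, Ogn and Slc6a13 form a block at 0.71 to 0.89, Dcn and Lum stand at 0.92, and the rows of Gkn3 and Ttr lie between -0.27 and 0.27.

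The wider meningeal list, 26 tested genes such as the collagens Col1a1 and Col1a2, the transcription factors Foxc1 and Tbx18 and the growth factor Igf2, held fitted changes in both directions. By limma 0 passed for cryolesion in floxed mice and 1 rose in Il6-deficient mice, Igfbp2, which encodes a binding protein of insulin-like growth factors (1.11 ± 0.13, adjusted p = 0.0124). The medians were -0.09 in floxed and -0.11 in Il6-deficient mice. In the mean of both genotypes Col3a1 (1.21 ± 0.17, adjusted p = 0.00862) and Igfbp2 rose, and Igf2 (-0.83 ± 0.17, adjusted p = 0.0238), the proteoglycan Fmod (-0.91 ± 0.17, adjusted p = 0.0206) and Ranbp3l (-0.74 ± 0.15, adjusted p = 0.0262) fell by limma. Of all features 6.02% were called higher and 5.87% lower in that mean, and nothing is read from the list's counts. Within genotypes 3.05% were called in floxed and 2.73% in Il6-deficient mice, in either direction. The mean level of the list was 7.58 to 8.12 in floxed cryolesioned mice, against 7.94 to 8.27 in floxed controls, and 7.32 to 8.11 in Il6-deficient cryolesioned mice, against 7.87 to 8.08 in Il6-deficient controls. Ogn followed 21 of the 26 within groups at over 0.5 and Dcn 12. The part of surface membrane kept in the dissection in these values was not tested.

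The families of single members gave the following. Of all features 3.05% were called for cryolesion in floxed mice, 2.73% in Il6-deficient mice and 11.9% in the mean of both. Among 7 tested small leucine-rich proteoglycans other than Ogn, Dcn and Lum, Prelp fell in both genotypes by limma (-1.33 ± 0.23 in floxed mice, adjusted p = 0.0321, and -1.29 ± 0.23 in Il6-deficient mice, adjusted p = 0.0397), and Ecm2 and Fmod fell in the mean of both. Ecm2 and Omd stand close to Ogn on chromosome 13 in the RefSeq table, and Omd was -0.09 ± 0.11 in floxed and -0.40 ± 0.11 in Il6-deficient mice. Among 5 tested SLC6 transporters related to Slc6a13 and Slc6a20a, 0 passed in either genotype by limma, and the GABA transporter gene Slc6a11 (-0.58 ± 0.13, adjusted p = 0.032 by limma) fell in the mean of both. Slc6a12, the neighbour of Slc6a13 on chromosome 6, was 0.30 ± 0.27 in floxed and 0.33 ± 0.27 in Il6-deficient mice. Among 10 tested genes of retinol and retinoic acid handling, Aldh1a3, a sister enzyme of Aldh1a2, rose in the mean of both (1.17 ± 0.20, adjusted p = 0.0139 by limma) and 0 passed within a genotype. Among 5 tested gastrokine and olfactomedin genes, Olfm3 fell in Il6-deficient mice (-0.87 ± 0.17, adjusted p = 0.0496 by limma), and Gkn1, next but one to Gkn3 on chromosome 6, was -0.63 ± 0.23 in floxed and -0.09 ± 0.23 in Il6-deficient mice.

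Markers of other cells were counted in the same fit, in which 3.05% of all features were called for cryolesion in floxed mice and 2.73% in Il6-deficient mice. For the mean of both genotypes 11.9% were called, in either direction. Among 13 astrocyte genes, Gfap and Vim rose and Aldoc and Glul fell in both genotypes by limma. Of 10 scar matrix genes, Tnc rose in floxed mice (1.03 ± 0.15, adjusted p = 0.0202 by limma), and Tnc, Col12a1 (0.79 ± 0.14, adjusted p = 0.0165) and Loxl1 (1.16 ± 0.23, adjusted p = 0.0247) rose in the mean of both genotypes. The scar list's medians were 0.48 in floxed and 0.58 in Il6-deficient mice. Of 12 endothelial and mural genes, Abcb1a and Vtn fell in floxed mice, and of 5 smooth muscle genes, Tagln rose in both genotypes. Of 7 border macrophage genes 0 passed within a genotype by limma, with medians of 0.73 in floxed and 0.39 in Il6-deficient mice. In the mean of both genotypes Mrc1 (0.56 ± 0.13, adjusted p = 0.0407) and F13a1 (1.05 ± 0.22, adjusted p = 0.0268) rose by limma. Of 5 erythroid genes and 5 genes of skin, bone and striated muscle, 0 passed in either genotype or in their mean by limma. The part of these cells in the members' changes was not tested.

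By a rule on likeness, the 5 named genes most like Myoc, Gkn3 and Zic1 were taken among 14878 candidates well above background in all channels, by Pearson's r over the 16 animals on levels centred by dye. For Myoc they were Wnt9a (0.96), Mkx (0.95), Boc (0.95), Chadl (0.94) and Lrrc73 (0.94). Wnt9a, which encodes a secreted Wnt ligand, changed by -1.22 in floxed and -1.21 in Il6-deficient mice, close to Myoc in size. Mkx, Boc, Chadl and Lrrc73 changed less, by -0.47, -0.55, -0.49 and -0.52 in floxed mice. In Il6-deficient mice these 4 changed by -0.67, -0.79, -0.45 and -0.48. For Gkn3 they included the citrate transporter gene Slc13a5 (0.94), 9330102E08Rik (0.94), Epb41l2 (0.93) and Phf21b (0.93). For Zic1 they were Magel2 (0.91), Cfap43 (0.90), the transcription factor gene Sp8 (0.88), Spink8 (0.87) and Lbhd2 (0.87). Spink8 and Lbhd2 had fitted differences of the cryolesion change between genotypes of -1.55 and -1.28, beside -1.26 for Zic1. Those of Magel2, Cfap43 and Sp8, which were more like Zic1 by r, were smaller in size, at -0.35, -0.22 and -0.44. Because group differences enter these correlations for Myoc and Gkn3, their within-group values were lower, 0.72 for Wnt9a with Myoc and 0.80 for Slc13a5 with Gkn3, whereas that of Magel2 with Zic1 was 0.95.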

How the data were processed

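The members and the marker lists were chosen with earlier results of these data known. Agilent Feature Extraction 10.7.3.1 produced the array files, per the submitters' processing notes. The deposited files hold median spot and background intensity per channel, not normalized, and processed intensities that the software, per the file headers, background-subtracted and dye-normalized. The log10 ratio deposited in them, red over green, was used only to check the value table. That table holds log2 ratios that the authors deposited without a stated normalization (correlation with the ratios used here 0.966 to 0.978), so its exact scaling stays unknown. All arrays came from 1 slide and 1 scan, which therefore could not be tested as batches.

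Median intensities were corrected by normexp with an offset of 50 and normalized by loess within arrays. Control spots and 115 to 194 outlier spots per array had weight 0 and were left out. Probes well above background in at least 4 of 16 channels were kept, and the brightest probe stood for a gene: 29362 features, 16852 of them genes named through RefSeq accessions of GRCm38.p6. The ratio model, run in R 4.3.3 with limma 3.58.1, had a dye term and 3 group coefficients (4 residual degrees of freedom, prior 2.95), and Benjamini-Hochberg adjustment at 0.05. Levels are channel intensities after Aquantile. The fit was tested on simulated data. The labels number the mice of each group as replicates and do not say more of their origin, so p-values measure the spread between these samples. Same-numbered animals on different arrays correlated at -0.322 to 0.453, with a median of 0.126, and 10 of 20 pairs exceeded 0.1. Differently numbered animals on different arrays had a median of -0.0146, and 18 of 68 pairs exceeded 0.1. Whether the numbers pair animals beyond an array is therefore not settled, and the main fit left such pairing out. Alternatives were other offsets, normalizations, filters, probe summaries, a separate-channel fit, the replicate block, sex and each array left out. Named genes were all members, list genes past the threshold, the 5 genes most like Myoc, Gkn3 and Zic1, and Gfap, Timp1 and Xist; Sema3g, Kl, Folr1, Otx2, Sostdc1, Zic2, Zic4, Zic5, Omd, Slc6a12, Gkn1 and the meningeal examples were named after their values were seen. Some genes that these rules name are not reported here.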

Additional observations from a re-analysis of the deposited data

Results flagged for a closer look

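Zic1 stood out in 1 animal. Its level was 10.96 in Il6-deficient control animal 1, far above the other 3 animals of that group, at 8.95 to 9.23, with a gap of 0.858 of the group's range. Among 40 sets of 4 animals examined this way, 10 genes in 4 groups, 1 stood apart, while chance marks about 1 in 20. The same animal had the highest mean level of the ependymal list, 8.62. Without its array the fitted difference of the Zic1 cryolesion change between genotypes was -0.98, beside -1.26 with it.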

How the results depend on the processing

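For cryolesion in floxed mice 2 were called, against 1 with processed signals, 5 with the separate-channel fit, 0 with the replicate block and 0 to 4 with 1 array left out. In Il6-deficient mice 3 were called, against 1 with processed signals, 4 with the separate-channel fit, 0 with the replicate block and 0 to 2 with 1 array left out. For the mean of both genotypes 5 were called, against 3 without the filter, 6 with the separate-channel fit, 2 with the replicate block, 3 with sex as a covariate and 2 to 6 with 1 array left out. For genotype and for the difference between genotypes the count was 0 under every alternative run. The cause of these moves was not tested. The block and leave-out fits also had fewer arrays or degrees of freedom, and the part of this was not tested either. All features called for cryolesion numbered 896 in floxed mice (57 to 4766 over the alternatives), 803 in Il6-deficient mice (6 to 3029) and 3492 in the mean (772 to 8269), the lowest without lesion-side array 2 for the first and with the replicate block for the others, and the highest with separate channels. For genotype in the mean of both states the count was 1, and 1584 with sex as a covariate, a term that rested on control-side array 2 alone. Myoc and Gkn3, chosen partly for these falls, kept their direction for cryolesion in each genotype under all 18 alternatives. Some of these could not move the values. Each gene has 1 probe, so the filter and probe-summary settings returned the main changes, as did the replicate block in floxed mice. Signal over background limits Myoc and Ogn, which failed to clear background in 2 animals for Myoc and 1 for Ogn.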
